A study of Danio rerio with 170 samples.

Results

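The amino acid transporter genes described here are the genes whose symbol belongs to solute carrier (SLC) family 1, 3, 7, 36, 38 or 43, a rule that uses names and no expression value. They are 54 of the 32520 genes in the count table, 12 in SLC1, 3 in SLC3, 18 in SLC7, 2 in SLC36, 13 in SLC38 and 6 in SLC43. One of them, SLC7A6OS, is named for its place opposite SLC7A6 and is not a transporter. Symbols are written as the reference table writes them, in capitals where the human name is used. Of the 54 genes 20 share their symbol with another of the 54, so these are told apart by identifier. SLC43A2 stands below for ENSDARG00000061120, SLC1A2 for ENSDARG00000102453, SLC1A3 for ENSDARG00000104431, SLC7A3 for ENSDARG00000020645 and SLC43A3 for ENSDARG00000057949, and their namesakes carry the identifier.

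Expression was measured by 3′ mRNA sequencing in pools of whole zebrafish embryos of the Tropical 5D wildtype strain, unmodified genetically, dechorionated and exposed from 6 hours post fertilization (hpf) in 1% DMSO, which the controls also received. At 48 hpf each of 15 per- and polyfluoroalkyl substances (PFAS) had 4 pools of 10 embryos. Exposure Round 1 held Control Round 1, with 6 pools from 6 collection days, and the following PFAS. PFAS 1 was 9-Chloro-perfluorononanoic acid at 100 µM, PFAS 3 perfluorooctanesulfonic acid (PFOS, potassium salt) at 13.8 µM, PFAS 5 perfluoroheptane sulfonic acid at 100 µM and PFAS 6 the sulfonamide EtFOSA at 100 µM. PFAS 7 was 1-(Perfluorofluorooctyl)propane-2,3-diol at 39.7 µM, PFAS 8 was 1H,1H,11H,11H-Perfluorotetraethylene glycol at 53 µM and PFAS 9 was 2,2,3,3-Tetrafluoropropyl acrylate at 62 µM. PFAS 10 was the sulfonamide FOSA at 8 µM, PFAS 11 the shorter sulfonamide FHxSA at 28 µM, PFAS 12 was 3H-Perfluoro-2,2,4,4-tetrahydroxypentane at 100 µM and PFAS 13 a decanediol with fluorinated carbons between its alcohol ends at 25 µM. Exposure Round 2 came from 1 day and held Control Round 2 with 4 pools, PFAS 2 (Nafion byproduct 2, NB2) at 30 µM, PFAS 4 (Perfluoro-3,6,9-trioxatridecanoic acid) at 50 µM, and the diacrylates of a fluorinated pentanediol (PFAS 14) and hexanediol (PFAS 15), both at 20 µM. A time course set 73 µM NB2 against its own controls at 48, 72 and 96 hpf in pools of 8 embryos. Doses aimed at a common rate of malformation at a later age, which PFAS 12 did not reach and PFAS 14 and 15 stayed under, so PFAS were not compared at equal dose, apart from PFAS 14 with PFAS 15. A whole embryo pool cannot tell fewer cells of a type from less RNA per cell.

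Amino acids cross cell membranes through such carriers. SLC7A5, SLC7A6, SLC7A7, SLC7A8, SLC7A10 and SLC7A11 encode light chains that reach the surface with the heavy chain 4F2hc, encoded by SLC3A2, whereas SLC3A1 encodes the heavy chain of SLC7A9. In mammals, when amino acids run short or the endoplasmic reticulum is stressed, phosphorylation of the initiation factor eIF2α raises translation of the transcription factor ATF4, which induces several of these carriers along with genes of serine and asparagine synthesis and aminoacyl-tRNA synthetases. Carriers of SLC1 such as SLC1A2 and SLC1A3 clear glutamate from synapses in brain and retina, so the group spans general nutrient uptake and nerve tissue.

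Totals of the 70 libraries at 48 hpf ran from 14265378 to 30363275 counts, and the median library held 23474909.5. PFAS 5 replicate 1 was left out of all comparisons except an alternative fit that included it. In that library, of the 51 genes tested here 16 lay above, 13 below and 22 within the range of the 6 controls. Control Round 1 replicate 5 stood apart. Its 14 listed yolk syncytial layer genes summed to 1145 CPM (counts scaled to a common library size), against 3896 to 4259 in the other 5 controls, and its 15 listed gut and liver genes to 1015 CPM, against 3690 to 4128. Control Round 1 replicate 4 was the highest of the 6 controls for 16 of the 51 genes. None of the 12 marker lists, which cover nervous system, retina, muscle, blood, skin, kidney, pigment, gut, liver and yolk, had a gene at 0 in all 10 controls. Many markers were weak, however. Under 1 CPM on average in controls were 11 of 27 photoreceptor and retina genes and 11 of 19 macrophage and neutrophil genes. Some listed names matched more than 1 gene, so 20 photoreceptor and retina names gave 27 genes and 12 macrophage and neutrophil names gave 19. PFAS 10 replicate 1 had the highest level of its group for 10 of the 15 genes called higher there, and without it or any other 1 library 16 to 18 transporter genes were called in PFAS 10.

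Of the 54 genes 51 passed the filter on low counts. The 3 that did not were SLC1A2 ENSDARG00000052138, SLC1A7 ENSDARG00000026248 and slc7a14b, with 63, 99 and 41 counts over all libraries. Because the values are 3′ tags, about 1 per transcript, they are given as CPM without a correction for gene length. In the 10 controls 20 genes averaged over 10 CPM, 15 between 1 and 10 and 19 under 1. The 5 highest means were those of SLC43A2, a carrier of large neutral amino acids, at 187 ± 43.7 CPM (SD, n = 10), SLC1A2, the astroglial glutamate carrier, at 187 ± 14.0, slc38a5b, a glutamine carrier, at 115 ± 14.5, SLC1A5, which exchanges neutral amino acids, at 68.1 ± 7.28, and SLC7A6OS at 56.04 ± 9.36. SLC43A2 and SLC1A2 did not differ beyond this spread, nor did SLC1A5 and SLC7A6OS, while slc38a5b lay apart from its neighbours on both sides. SLC7A9, known from kidney tubules, averaged 0.317 ± 0.208 CPM, and SLC7A5, the main light chain of dividing mammalian cells, 0.914 ± 0.401 CPM.

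Every exposure was set against controls from the same round, and a gene was called at an adjusted p under 0.05 over all 21928 genes tested (edgeR's quasi-likelihood test, Benjamini-Hochberg adjustment). In PFAS 10, FOSA, 16 of 51 transporter genes were called (31.4%), 15 higher and 1 lower, where 14.1% of all genes were called, 7.26% higher and 6.83% lower. In PFAS 13 there were 15 (29.4%), 10 higher and 5 lower, beside 16.2% of all genes, 7.63% higher and 8.52% lower. In PFAS 11, FHxSA, there were 13 (25.5%), 9 higher and 4 lower, beside 14.1% of all genes, 6.58% higher and 7.52% lower. The excess over the background was on the side of higher expression in these 3.

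PFAS 12 had 8 genes called (15.7%), 3 higher and 5 lower, beside 14.2% of all genes, 6.77% higher and 7.47% lower, a share close to the background. PFAS 9 had 6 (11.8%), 2 higher and 4 lower, beside 6.90% of all genes, 3.06% higher and 3.84% lower. PFAS 8 had 4 (7.84%), 3 higher and 1 lower, beside 3.84% of all genes, 2.098% higher and 1.74% lower. The other 9 PFAS had 0 genes called. Without Control Round 1 replicate 5 PFAS 8 and PFAS 9 each had 4 genes called, PFAS 10 had 16, PFAS 11 had 14, PFAS 12 had 8 and PFAS 13 had 13. The median log2 fold change of the 51 genes was 0.09 for PFAS 10 (all genes -0.02), 0.06 for PFAS 11 (all genes -0.01) and 0.05 for PFAS 13 (all genes -0.02). Rises and falls offset each other in a signed median, so it does not give how far single genes moved.

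**Figure D1:**
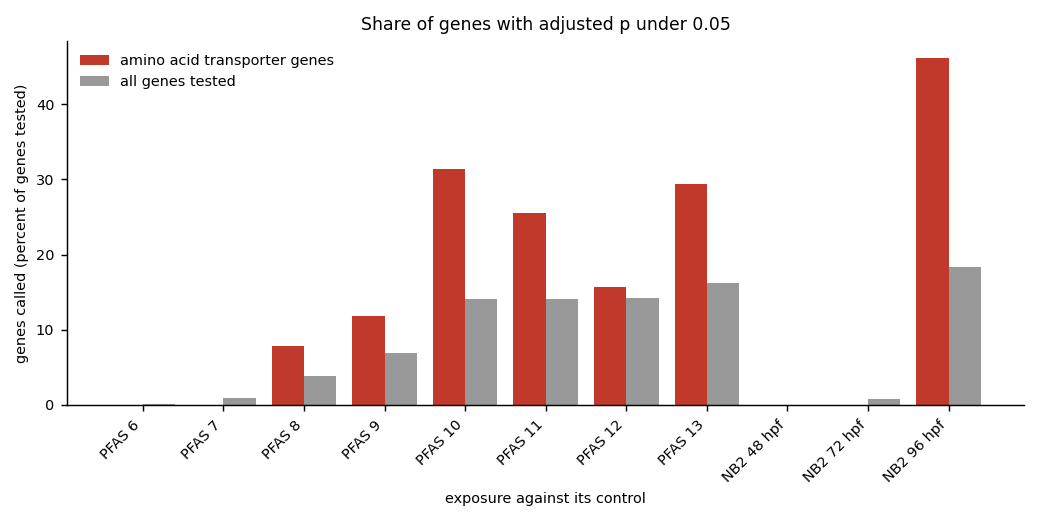
Percent of the transporter genes (red) and of all genes tested (grey) with an adjusted p under 0.05 in each exposure against its control, from PFAS 6 to PFAS 13 at 48 hpf and for NB2 in the time course. The red bar reaches 31.4% for PFAS 10, 25.5% for PFAS 11 and 29.4% for PFAS 13 and is close to the grey one in PFAS 12.

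Over PFAS 8 to 13, which share their 6 controls, 25 genes were called at least once, 17 only higher, 8 only lower and 0 in both directions. Of these, 17 averaged over 10 CPM in controls, 7 between 1 and 10 and 1 under 1, and 26 tested genes were called in none. Of the 25, 12 were called in 3 or more exposures and 13 in 1 or 2, and a gene called once cannot differ in direction. The same counts over all genes were not taken, so nothing is read from the shared direction. The sets called differed between exposures. The heatmap of all tested genes shows SLC43A2, SLC1A4, SLC1A5, SLC7A3, SLC7A7, SLC38A5 and slc3a2a called higher in each of PFAS 10, 11 and 13, and among the glutamate carriers a rising SLC1A3 beside falling SLC1A2 and SLC1A1.

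**Figure D2:**
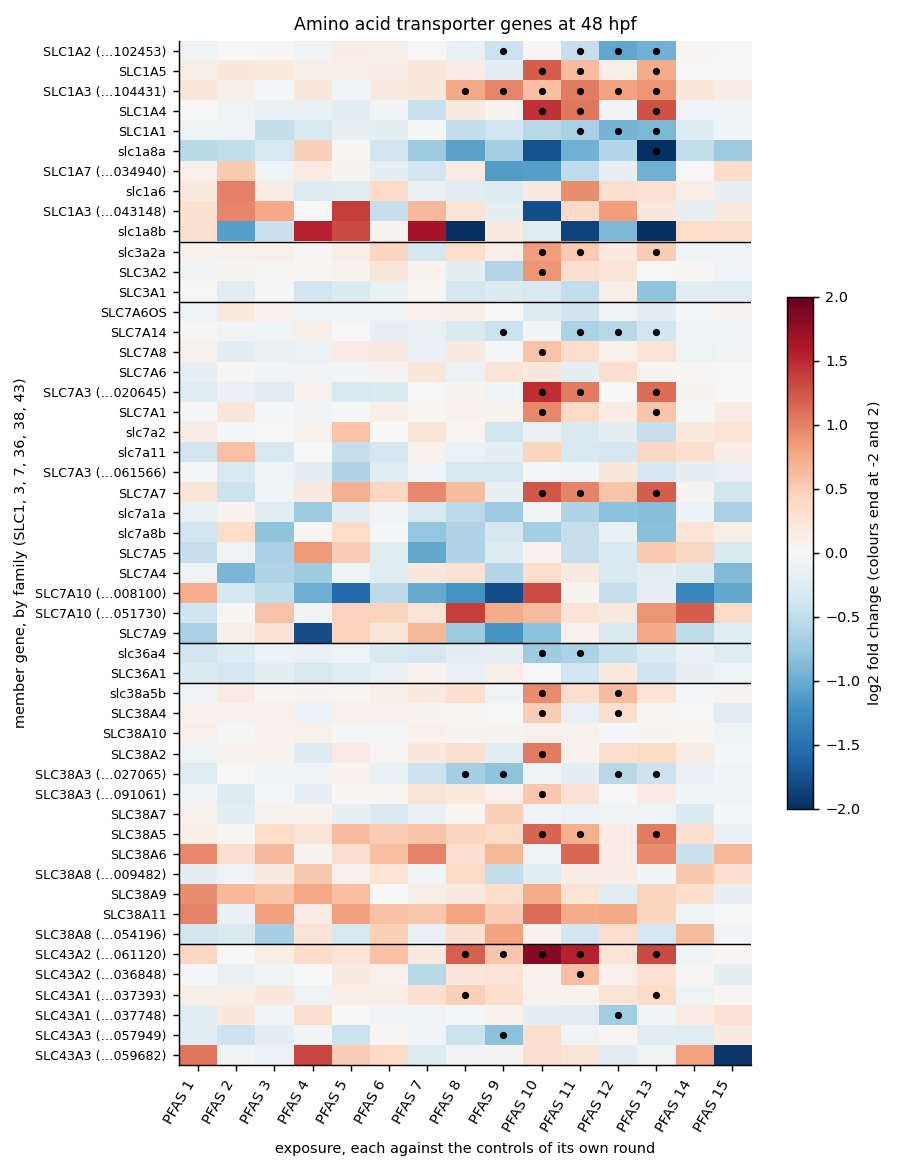
Log2 fold change of each of the 51 tested genes (rows, by SLC family) in each PFAS (columns) against controls of the same round, a dot marking an adjusted p under 0.05; names shared by 2 genes carry the last digits of the identifier. Dots are confined to PFAS 8 to 13, with 15 of 16 on rising genes in PFAS 10, and strong colours without a dot belong mostly to genes with few counts.

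SLC43A2 (LAT4, which lets branched-chain and other large neutral amino acids leave cells in mammals) had the largest called rise in PFAS 8, 10, 11 and 13. Its level in the 6 controls was lowest 77.6, median 197, highest 233 CPM, the lowest being replicate 5. In PFAS 10 the 4 pools read 693, 636, 646 and 584 CPM, all above every control, a log2 fold change of 1.81 ± 0.15 (3.51-fold higher, adjusted p = 3.3e-15). In PFAS 11 they read 450.4, 541, 538 and 576 CPM, a change of 1.53 ± 0.15 (2.89-fold higher, adjusted p = 1.4e-12), and in PFAS 13 482, 419, 488 and 425 CPM, a change of 1.32 ± 0.15 (2.49-fold higher, adjusted p = 1.4e-10). None of these groups overlapped the controls. PFAS 8, where few other transporter genes moved, also raised it, to 512, 323, 409 and 418 CPM, by 1.19 ± 0.15 (2.28-fold higher, adjusted p = 7.6e-08). In PFAS 9 it read 286, 279.8, 221 and 279 CPM, overlapping the controls, with a change of 0.55 ± 0.15 (adjusted p = 0.015). That call was lost without Control Round 1 replicate 5, PFAS 9 replicate 1 or PFAS 9 replicate 2, with changes of 0.39 to 0.53 (adjusted p 0.053 to 0.067), and in the fit with only the libraries of both groups (0.55 ± 0.18, adjusted p = 0.067). In PFAS 12 the change was 0.27 (95% interval -0.03 to 0.58) and was not called.

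Low yolk RNA and low SLC43A2 met in 3 libraries. The yolk list summed lowest in Control Round 1 replicate 5 (1145 CPM), PFAS 7 replicate 4 (1786) and PFAS 6 replicate 2 (2196). SLC43A2 read 77.6, 145 and 178 CPM in them, the lowest value of each group. SLC43A2 was also low in libraries without low yolk RNA. It read 133 CPM in PFAS 2 replicate 2 (yolk sum 4707 CPM) and 155 CPM in PFAS 14 replicate 1 (4005 CPM). In PFAS 10 the list summed to 3257 to 3581 CPM, below the other 5 controls, and SLC43A2 read 584 to 693 CPM. The yolk sum was 4298 to 4846 CPM in PFAS 11 and 4694 to 5906 CPM in PFAS 13, above the highest control at 4259 CPM. It was 4085 to 5587 CPM in PFAS 8, 3853 to 5483 CPM in PFAS 9 and 3924.5 to 5443 CPM in PFAS 12. The part of yolk RNA in the SLC43A2 result was not tested. Without Control Round 1 replicate 5 the SLC43A2 log2 fold change was 1.66 (PFAS 10), 1.38 (PFAS 11), 1.16 (PFAS 13) or 1.03 (PFAS 8), still called every time. The second gene of that name, SLC43A2 ENSDARG00000036848, was called in PFAS 11 alone, at 32.1, 33.2, 37.3 and 31.1 CPM against controls of lowest 14.3, median 24.7, highest 25.1, 0.60 ± 0.18 (adjusted p = 0.014). Its call was lost without Control Round 1 replicate 5 or PFAS 11 replicate 3, with adjusted p of 0.056 and 0.058.

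SLC1A4 and SLC1A5 (ASCT1 and ASCT2, exchangers of small neutral amino acids such as serine, alanine and glutamine) rose in PFAS 10, 11 and 13. For SLC1A4 the controls read lowest 32.7, median 37.002, highest 68.4 CPM, the highest being replicate 4 and the others at most 40.5. PFAS 10 read 153, 103, 97.6 and 102 CPM, above every control, a change of 1.45 ± 0.14 (2.725-fold higher, adjusted p = 1.1e-12). PFAS 13 followed with 94.7, 75.97, 109 and 127 CPM, 1.28 ± 0.14 (2.43-fold higher, adjusted p = 5.1e-11), and PFAS 11 with 74.6, 89.6, 95.7 and 87.5 CPM, 1.06 ± 0.14 (2.08-fold higher, adjusted p = 2.7e-08), and none of the 3 groups overlapped the controls. In PFAS 8, 9 and 12 the changes were 0.18 (95% interval -0.11 to 0.47), 0.05 (95% interval -0.24 to 0.35) and -0.05 (95% interval -0.35 to 0.25), none called.

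SLC1A5 read lowest 53.2, median 65.1, highest 71.8 CPM in the controls and 208, 115, 137 and 141 CPM in PFAS 10, a change of 1.22 ± 0.11 (2.32-fold higher, adjusted p = 3e-14). In PFAS 13 it read 125, 83.3, 101 and 122 CPM (0.74 ± 0.11, adjusted p = 2.2e-07) and in PFAS 11 87.9, 78.2, 129.8 and 103 CPM (0.62 ± 0.11, adjusted p = 1e-05). All 12 pools lay above every control, and PFAS 10 replicate 1 was the highest for both genes. PFAS 9 gave 55.6, 60.4, 52.4 and 55.3 CPM and a change of -0.21 (95% interval -0.44 to 0.01), not called.

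**Figure D3:**
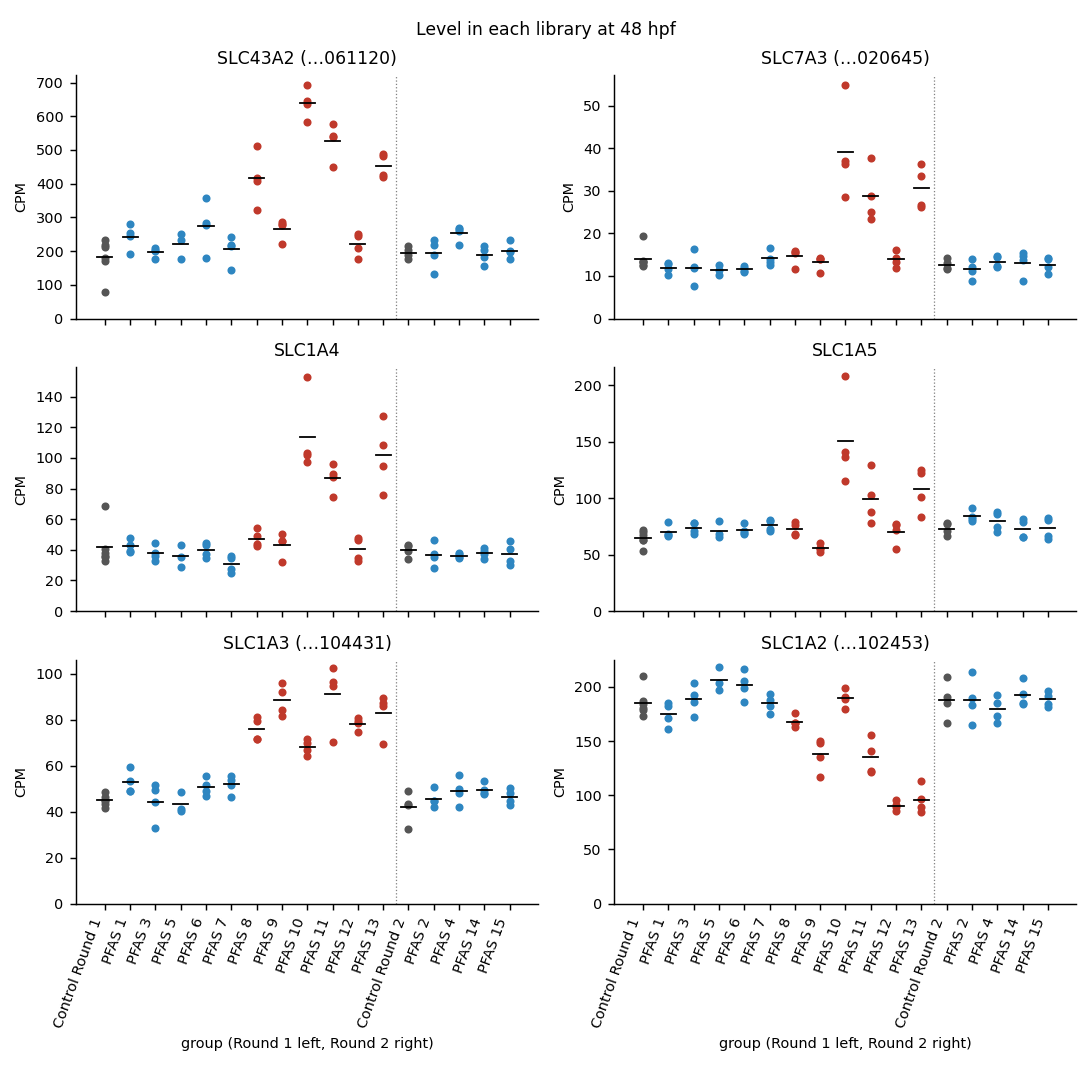
CPM of 6 transporter genes in each library at 48 hpf, Round 1 left and Round 2 right of the dotted line, with the controls in grey, PFAS 8 to 13 in red, the other PFAS in blue and a bar at each group's mean. SLC43A2, SLC7A3, SLC1A4 and SLC1A5 are highest in PFAS 10, SLC1A3 lies above the controls in each of PFAS 8 to 13, and SLC1A2 is lowest in PFAS 12 and 13.

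SLC7A3, a carrier of arginine and lysine, rose in PFAS 10, 11 and 13 too. It read lowest 12.4, median 13.2, highest 19.4 CPM in the controls, with 5 of 6 at 12.4 to 13.5. PFAS 10 gave 54.99, 28.6, 36.4 and 37.02 CPM, 1.48 ± 0.15 (2.79-fold higher, adjusted p = 1.9e-12). In PFAS 13 it read 33.5, 26.7, 26.3 and 36.3 CPM, 1.12 ± 0.15 (2.18-fold higher, adjusted p = 1.1e-08), and in PFAS 11 28.7, 23.5, 37.7 and 25.04 CPM, 1.03 ± 0.15 (2.04-fold higher, adjusted p = 1.4e-07). The pools of PFAS 8, 9 and 12, at 10.7 to 16.1 CPM, overlapped the controls. Its namesake SLC7A3 ENSDARG00000061566 and the other cationic carriers slc7a1a and slc7a2 were called in none of PFAS 8 to 13.

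SLC7A1 (CAT1, the common arginine carrier) rose in PFAS 10 to 17.8, 12.2, 15.7 and 14.8 CPM from lowest 6.12, median 7.93, highest 9.15 in the controls, 0.97 ± 0.15 (adjusted p = 5.1e-07). In PFAS 13 it read 10.23, 9.79, 10.98 and 14.6 CPM, 0.55 ± 0.15 (adjusted p = 0.0046), a call lost without PFAS 13 replicate 4 (0.42, adjusted p = 0.074). In PFAS 11 it gave 0.40 ± 0.15 (adjusted p = 0.058), not called, and 0.44 ± 0.15 (adjusted p = 0.039) with the collection day as a block. SLC7A7, a light chain that exports arginine and lysine, was low, at lowest 1.63, median 2.11, highest 2.76 CPM in the controls. It read 5.39, 6.10, 4.01 and 5.43 CPM in PFAS 10, 1.24 ± 0.27 (2.36-fold higher, adjusted p = 0.00038). It read 5.93, 3.17, 6.53 and 4.84 CPM in PFAS 13 (1.21 ± 0.27, adjusted p = 0.00046) and 5.07, 3.97, 5.26 and 3.22 CPM in PFAS 11 (0.99 ± 0.27, adjusted p = 0.0056), and none of these 3 groups overlapped the controls.

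Both genes named for the heavy chain SLC3A2 were called. slc3a2a read lowest 30.0, median 32.5, highest 35.6 CPM in the controls and 60.03, 65.97, 50.9 and 56.3 CPM in PFAS 10, 0.84 ± 0.11 (1.79-fold higher, adjusted p = 6.9e-09). PFAS 11 gave 42.9, 57.6, 46.1 and 40.5 CPM, 0.52 ± 0.11 (adjusted p = 0.00018), and PFAS 13 gave 51.3, 44.7, 41.7 and 45.7 CPM, 0.49 ± 0.11 (adjusted p = 0.00042), with no overlap in either. In PFAS 8 all 4 pools, at 44.9, 37.95, 43.8 and 39.5 CPM, lay above the controls at 0.35 ± 0.11 (adjusted p = 0.054), and the change became 0.37 ± 0.10 (adjusted p = 0.019) with the day block. SLC3A2 ENSDARG00000037012 rose in PFAS 10, to 30.2, 22.1, 16.3 and 16.4 CPM from lowest 7.69, median 11.6, highest 14.9, 0.88 ± 0.20 (adjusted p = 0.00058). In PFAS 9 it gave -0.58 ± 0.21 (adjusted p = 0.078), not called, and -0.62 ± 0.20 (adjusted p = 0.046) with the day block. Of the light chains of this heavy chain, SLC7A8 (LAT2) rose in PFAS 10, at 29.4, 32.9, 34.4 and 28.1 CPM against lowest 17.8, median 19.9, highest 28.9, 0.56 ± 0.13 (adjusted p = 0.00064), overlapping the controls through replicate 4. SLC7A5, SLC7A6 and slc7a11 were called in none of PFAS 8 to 13.

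Of the 13 SLC38 genes tested, which carry glutamine and other small neutral amino acids, 5 were called in PFAS 10, all higher. SLC38A5, a carrier of glutamine and histidine, read lowest 4.39, median 4.94, highest 8.67 CPM in the controls and 13.5, 9.91, 12.9 and 15.7 CPM in PFAS 10, 1.17 ± 0.20 (2.24-fold higher, adjusted p = 8.2e-06). PFAS 13 gave 12.03, 8.04, 12.1 and 15.6 CPM, 1.04 ± 0.20 (adjusted p = 5.2e-05), and PFAS 11 9.20, 6.60, 10.6 and 11.3 CPM, 0.70 ± 0.20 (adjusted p = 0.010). Both of these overlapped the controls, whose highest value came from replicate 4. The PFAS 11 call was lost without PFAS 11 replicate 4 (0.61, adjusted p = 0.056). The more abundant slc38a5b, at lowest 103, median 107, highest 137 CPM in the controls, read 325, 166, 195 and 198 CPM in PFAS 10, 0.94 ± 0.13 (adjusted p = 1.3e-07), and 228, 179.5, 157 and 144 CPM in PFAS 12, 0.62 ± 0.13 (adjusted p = 0.00047), both without overlap. With the day block it was also called in PFAS 11 (0.33 ± 0.12, adjusted p = 0.045) and PFAS 13 (0.32 ± 0.12, adjusted p = 0.050, under 0.05 before rounding).

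SLC38A2 (SNAT2, which mammalian cells induce in amino acid shortage) read 65.7, 30.7, 31.6 and 40.6 CPM in PFAS 10 and lowest 17.2, median 20.2, highest 23.8 in the controls, 1.04 ± 0.17 (2.05-fold higher, adjusted p = 1.9e-06). All 4 pools lay above the controls, replicate 1 far above. In PFAS 13 the change was 0.38 ± 0.17 (adjusted p = 0.12) and 0.47 ± 0.15 (adjusted p = 0.024) with the day block. SLC38A4, a carrier of neutral amino acids known from liver, had tight controls of lowest 46.8, median 48.3, highest 50.3 CPM and rose in PFAS 10 to 78.5, 61.8, 59.3 and 74.4 CPM, 0.50 ± 0.09 (adjusted p = 6.2e-06), and in PFAS 12 to 63.1, 56.4, 57.9 and 64.1 CPM, 0.32 ± 0.09 (adjusted p = 0.0053). PFAS 12 thus raised slc38a5b and SLC38A4, which PFAS 10 also raised, and left SLC43A2, SLC1A4, SLC1A5 and SLC7A3 uncalled.

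The genes named SLC38A3 (SNAT3, a glutamine carrier of astroglia and liver) went apart. ENSDARG00000027065 fell, from lowest 18.7, median 21.2, highest 24.9 CPM in the controls to 11.50, 9.65, 11.4 and 16.9 CPM in PFAS 9, -0.80 ± 0.13 (1.74-fold lower, adjusted p = 5e-06), and 11.51, 15.7, 13.8 and 12.2 CPM in PFAS 8, -0.69 ± 0.13 (adjusted p = 0.00024). In PFAS 12 it read 13.5, 14.4, 15.4 and 15.3 CPM, -0.55 ± 0.13 (adjusted p = 0.0011), without overlap. In PFAS 13 it overlapped the controls, at 16.3, 12.8, 16.3 and 19.4 CPM, -0.41 ± 0.13 (adjusted p = 0.016), a call lost without PFAS 13 replicate 2 (-0.31, adjusted p = 0.13). ENSDARG00000091061 rose in PFAS 10, at 22.3, 21.4, 16.5 and 20.6 CPM against lowest 10.3, median 13.7, highest 17.5, 0.54 ± 0.12 (adjusted p = 0.00050), with overlap. In SLC36, slc36a4 fell in PFAS 10, at 6.45, 7.14, 4.53 and 4.51 CPM against lowest 6.71, median 9.64, highest 11.8, -0.71 ± 0.19 (adjusted p = 0.0057). In PFAS 11 it changed by -0.64 ± 0.19 (adjusted p = 0.014), a call lost without PFAS 11 replicate 3 (-0.53, adjusted p = 0.091), and both groups overlapped the controls.

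Glutamate carriers split by gene. SLC1A3 (GLAST, in mammals the glutamate carrier of radial glia, Bergmann glia and Müller cells) rose in all 6 of PFAS 8 to 13. Its controls read lowest 41.4, median 44.8, highest 48.5 CPM. The pools read 70.4, 96.2, 103 and 94.6 CPM in PFAS 11, 1.02 ± 0.09 (2.03-fold higher, adjusted p = 4.8e-14), and 84.4, 96.1, 91.9 and 81.5 CPM in PFAS 9, 0.98 ± 0.09 (1.97-fold higher, adjusted p = 1e-12). PFAS 13 gave 87.2, 69.5, 89.3 and 85.9 CPM (0.89 ± 0.09, adjusted p = 4.3e-12) and PFAS 12 gave 78.7, 80.6, 79.2 and 74.7 CPM (0.80 ± 0.09, adjusted p = 3e-10). All 24 pools of the 6 exposures, these and the next ones, lay above every control. PFAS 8 gave 81.3, 71.8, 79.3 and 71.7 CPM (0.76 ± 0.09, adjusted p = 2.3e-08) and PFAS 10 69.7, 64.1, 66.8 and 71.7 CPM (0.60 ± 0.09, adjusted p = 9.4e-07), so the exposure that raised the other carriers most, PFAS 10, had the smallest change here. No single left-out library ended any of these 6 calls. SLC1A3 was the only transporter gene called in all 6.

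SLC1A2 (GLT-1, the astroglial glutamate carrier) fell in 4 of these exposures, from lowest 173, median 182, highest 209.8 CPM in the controls. In PFAS 12 the pools read 95.4, 89.2, 90.6 and 85.4 CPM, -1.04 ± 0.08 (2.06-fold lower, adjusted p = 4.5e-18), and in PFAS 13 96.5, 113, 84.1 and 89.3 CPM, -0.95 ± 0.08 (1.94-fold lower, adjusted p = 4.7e-17). Both groups stood at about the same low level, far under every control. PFAS 11 gave 155, 122, 141 and 122 CPM (-0.46 ± 0.07, adjusted p = 2.2e-06) and PFAS 9 148, 135, 117 and 150.4 CPM (-0.43 ± 0.07, adjusted p = 2.6e-05), also without overlap. PFAS 10 gave 189, 190.2, 199 and 180.0 CPM and a change of 0.03 (95% interval -0.12 to 0.18), and PFAS 8 a change of -0.14 (95% interval -0.29 to 0.00), neither called.

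SLC1A1 (EAAT3, a neuronal and epithelial glutamate carrier) fell in PFAS 12, 13 and 11 from lowest 4.86, median 5.82, highest 7.600 CPM. It read 3.53, 2.63, 4.84 and 1.61 CPM in PFAS 12, -0.93 ± 0.23 (adjusted p = 0.0021), 3.17, 3.08, 2.85 and 3.98 CPM in PFAS 13, -0.90 ± 0.23 (adjusted p = 0.0026), and 4.56, 2.55, 3.67 and 4.86 CPM in PFAS 11, -0.65 ± 0.23 (adjusted p = 0.041). None of these groups overlapped the controls, but the highest pools of PFAS 11 and 12 lay only just under the lowest control. The PFAS 11 call was lost without Control Round 1 replicate 1, 2 or 3 or PFAS 11 replicate 2 or 3, with adjusted p of 0.051 to 0.23, and with no filter on low counts (adjusted p = 0.053). In PFAS 10 it gave -0.55 ± 0.22 (adjusted p = 0.094), not called, and -0.64 ± 0.23 (adjusted p = 0.049) with the day block. The rare slc1a8a, of a glutamate carrier type found in fish, was called lower in PFAS 13 at 0.167, 0.250, 0.290 and 0 CPM against lowest 0.320, median 0.994, highest 1.56, -2.39 ± 0.87 (adjusted p = 0.048). It lost the call in 8 of 10 fits without 1 library, each except those without Control Round 1 replicate 4 or 5 (adjusted p 0.053 to 0.16), with no filter on low counts (adjusted p = 0.051) and with the day block (-2.08 ± 0.86, adjusted p = 0.094).

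Markers of nerve tissue moved in the same exposures. Of all genes 1.74% were lower in PFAS 8, 3.84% in PFAS 9 and 6.83% to 8.52% in PFAS 10 to 13. In PFAS 10 to 13, 6.58% to 7.63% of all genes were higher. Of 16 neuron markers tested PFAS 8 lowered 6, PFAS 9 lowered 7, PFAS 10 lowered 8, PFAS 11 lowered 14, PFAS 12 lowered 5 and PFAS 13 lowered 12, and 1 was higher in each of PFAS 10 and 11. Their summed level ran from 3556 to 4051 CPM in the controls, 2374 to 2693 in PFAS 11, 2591 to 2872 in PFAS 13, 3096 to 3190 in PFAS 12, 3030 to 3194 in PFAS 10, 2922 to 3196 in PFAS 9 and 3297 to 3402 in PFAS 8. The 15 radial glia and astroglia markers summed to 1022 to 1167 CPM in the controls, 1323 to 1452 in PFAS 12, 752 to 937 in PFAS 13, 722 to 867 in PFAS 10, 1032 to 1093 in PFAS 11, 1072 to 1191 in PFAS 9 and 1150 to 1176 in PFAS 8, with 4 higher and 1 lower in PFAS 12 and 3 higher and 5 lower in PFAS 13. SLC1A2 was lowest in PFAS 12 and 13 and was not called in PFAS 10. The 24 photoreceptor and retina markers tested gave 2 higher and 0 lower in PFAS 12 and 2 higher and 8 lower in PFAS 13, and the 27 listed summed to 271 to 327 CPM in the controls, 262 to 342 in PFAS 12 and 101 to 123 in PFAS 13, and between 139 and 235 over PFAS 8 to 11. The part of these cell types in the glutamate carrier results was not tested.

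SLC7A14, known from lysosomes of retina and brain in mammals, was lower in PFAS 11, at 11.50, 15.9, 19.2 and 16.03 CPM against lowest 20.1, median 24.3, highest 28.2 in the controls, -0.63 ± 0.14 (adjusted p = 0.00039), and in PFAS 12, at 13.8, 12.8, 20.8 and 19.4 CPM, -0.55 ± 0.14 (adjusted p = 0.0027), the second with overlap. Its calls in PFAS 9 (-0.43 ± 0.14, adjusted p = 0.037) and PFAS 13 (-0.38 ± 0.14, adjusted p = 0.047) were each lost without Control Round 1 replicate 4, 5 or 6. The first was also lost without PFAS 9 replicate 1 or 2 and the second without any 1 of the PFAS 13 replicates, with adjusted p of 0.056 to 0.35 over these fits. The PFAS 9 call was lost as well with only the libraries of both groups (adjusted p = 0.065) and the PFAS 13 call with no filter on low counts (adjusted p = 0.057).

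SLC43A1 (LAT3) has a pair of genes here. ENSDARG00000037393 rose in PFAS 8, at 25.7, 20.5, 26.04 and 23.6 CPM against lowest 15.5, median 16.96, highest 18.9, 0.48 ± 0.13 (adjusted p = 0.016), and in PFAS 13, at 24.4, 21.8, 23.1 and 19.4 CPM, 0.37 ± 0.13 (adjusted p = 0.035). The first call was lost without PFAS 8 replicate 1 or 3 (adjusted p 0.064 and 0.069) and the second without Control Round 1 replicate 4, 5 or 6 or PFAS 13 replicate 1, 2 or 3 (0.051 to 0.13). ENSDARG00000037748 fell in PFAS 12, at 5.10, 6.42, 5.79 and 6.65 CPM against lowest 8.53, median 9.21, highest 12.8, -0.69 ± 0.16 (adjusted p = 0.0010), without overlap. SLC43A3, which carries purine bases rather than amino acids in mammals, fell in PFAS 9, at 4.68, 3.28, 3.57 and 2.70 CPM against lowest 5.59, median 5.80, highest 8.59, -0.83 ± 0.22 (adjusted p = 0.012), a call lost without PFAS 9 replicate 2 or 4 (0.059 and 0.061).

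The sulfonamides PFAS 10 and 11 were given at 8 and 28 µM, so their values stand side by side without a test. SLC43A2, SLC1A4, SLC7A3, SLC1A5, SLC38A5, SLC7A7, slc3a2a and SLC1A3 were called higher in both, and slc36a4 was called lower in both. Only in PFAS 10 were SLC38A2, SLC38A4, slc38a5b, SLC38A3 ENSDARG00000091061, SLC3A2, SLC7A1 and SLC7A8 past the threshold, and only in PFAS 11 were SLC43A2 ENSDARG00000036848 called higher and SLC1A2, SLC1A1 and SLC7A14 lower, differences between exposures that were not tested.

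In the other 9 PFAS none of the 51 genes was called in 459 tests, of which 26 had an unadjusted p under 0.05, with a lowest adjusted p of 0.055. The share of all genes called was 0% for PFAS 1, 2, 14 and 15. It came to 0.944% under PFAS 7, 0.105% under PFAS 6, 0.0547% under PFAS 5, 0.0410% under PFAS 3 and 0.00456% under PFAS 4, so these comparisons held few calls of any kind. Unadjusted p under 0.05 was reached by 11 transporter genes with PFAS 7, 4 with PFAS 5, 3 with each of PFAS 1 and 6, 2 with PFAS 4, 1 with each of PFAS 3, 14 and 15 and 0 with PFAS 2. With PFAS 7 that is 21.57% of the 51 genes, beside 8.23% of all genes at the same unadjusted limit, with PFAS 5 7.84% beside 3.85%, and with the other 7 at most 5.88%, beside 3.07% to 5.90% of all genes. In PFAS 6 slc3a2a read 43.8, 34.3, 48.4 and 49.9 CPM, 0.43 ± 0.11 (adjusted p = 0.083), and 0.45 ± 0.10 (adjusted p = 0.023) with the day block. In PFAS 7 SLC7A7 read 5.51, 4.45, 3.84 and 3.49 CPM, 0.97 ± 0.27 (adjusted p = 0.055), and was called by DESeq2, as was the lower SLC38A3 ENSDARG00000027065.

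PFAS 14 and PFAS 15, diacrylates given at the same 20 µM that differ by a CF2 unit in the chain, were the only pair compared directly. None of the 51 genes was called, beside 0% of all genes (edgeR's quasi-likelihood test), and DESeq2 also called 0. An unadjusted p under 0.05 was reached by 3 of the 51 (5.88%), beside 2.65% of all genes. For the 20 genes over 10 CPM in controls the 95% intervals of the log2 difference all lay between -0.43 and 0.62. An uncalled difference does not show that the 2 compounds act alike, and the intervals bound it for these genes only.

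Genes that act beside the carriers were counted from lists. Of 25 genes of the amino acid shortage response, ATF4 and its targets without the carriers, 19 were higher and 0 lower in PFAS 10, 17 and 0 in PFAS 13, 15 and 1 in PFAS 11, 6 and 1 in PFAS 9, 4 and 0 in PFAS 8 and 1 and 3 in PFAS 12. Their median log2 fold change stood at 1.05 under PFAS 10, 0.69 under PFAS 13, 0.53 under PFAS 11 and -0.06 under PFAS 12. In PFAS 10, atf3, a stress-induced transcription factor, changed by 3.26 ± 0.25, ddit3, which encodes CHOP, by 2.54 ± 0.19, nupr1b by 1.99 ± 0.14 and atf4a by 1.05 ± 0.09. In PFAS 13 phgdh, the first enzyme of serine synthesis, changed by 1.71 ± 0.13 and asns, asparagine synthetase, by 1.15 ± 0.22. Beside these counts, 15 transporter genes were called higher with PFAS 10, 10 with PFAS 13, 9 with PFAS 11, and 3, 2 and 3 with PFAS 8, 9 and 12. The part of the shortage response in the carrier results was not tested. In PFAS 12 vldlr, psph and atf5b were lower and cebpb higher.

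All 19 aminoacyl-tRNA synthetase genes tested, which charge tRNAs with amino acids, were higher in PFAS 13, with a median of 0.67, where 7.63% of all genes were higher. PFAS 10 had 10 higher, PFAS 11 had 8, PFAS 12 had 3, PFAS 9 had 2 and PFAS 8 had 1, each with 0 lower. In PFAS 13 tars1 changed by 1.09 ± 0.08, nars1 by 1.14 ± 0.10 and aars1 by 1.12 ± 0.10, and in PFAS 10 aars1 by 1.05 ± 0.10. PFAS 10 thus had the most carriers and shortage genes called and PFAS 13 the most synthetases. In the 18 genes of amino acid sensing upstream of mTORC1, PFAS 10 raised 5, PFAS 11 and 13 each 2 and PFAS 8 1, and PFAS 12 lowered 1. Among all genes the share called higher was 7.26% for PFAS 10, 6.58% for PFAS 11 and 6.77% for PFAS 12. It was 7.63% for PFAS 13, 3.06% for PFAS 9 and 2.098% for PFAS 8, and 7.47% were lower in PFAS 12. Outside PFAS 10 the sensing counts are too few to read as a change.

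Amino acid carriers outside the 6 families were counted too. Of 18 other plasma membrane carriers 0 were higher in PFAS 8, 9, 11, 12 and 13, with 1, 3, 3, 3 and 3 lower, and 2 were higher and 2 lower in PFAS 10. Of all genes 1.74% were lower in PFAS 8, 3.84% in PFAS 9 and 6.83% to 8.52% in PFAS 10 to 13. Of 19 vesicle, lysosome and mitochondrial carriers 2 were higher and 4 lower in PFAS 11, 1 and 4 in PFAS 13, 0 and 3 in PFAS 12 and 2 and 1 in PFAS 10. Heat shock genes, 16 tested, had 9 higher in PFAS 10, 6 in PFAS 7 and 3 in each of PFAS 12 and 13. Genes of glutathione synthesis and NRF2 targets, 17 tested, had 8 higher with PFAS 11 and with PFAS 12, 7 with PFAS 9, 6 with PFAS 13, 5 with PFAS 7 and 4 with PFAS 10. Of all genes 3.06% were higher in PFAS 9 and 6.58% to 7.63% in PFAS 10 to 13, and 0.944% were called in either direction in PFAS 7. Skeletal muscle markers, 18 tested, were lower for 10 genes in PFAS 11 and 13, 8 in PFAS 12 and 5 in PFAS 10. Their sum was 21571 to 23815 CPM in the controls, 17464 to 18657 in PFAS 11, 17842 to 20120 in PFAS 13, 18571 to 20302 in PFAS 12 and 19772 to 22614 in PFAS 10, and the part of tissue makeup in the carrier results was not tested.

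**Figure D4:**
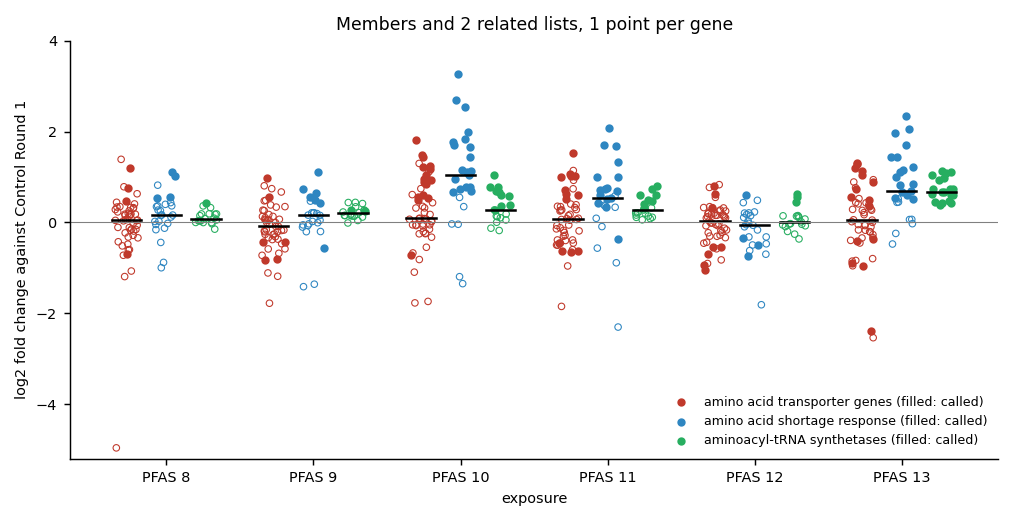
Log2 fold change against Control Round 1, 1 point per gene, for the transporter genes (red), the amino acid shortage response (blue) and the aminoacyl-tRNA synthetases (green) in PFAS 8 to 13, filled where the adjusted p was under 0.05, with a bar at each median. The median of the shortage genes is 1.05 in PFAS 10 and -0.06 in PFAS 12, and all 19 synthetases are filled in PFAS 13; the lowest red point, in PFAS 8, is a gene with few counts.

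In the NB2 time course the authors' normalized log2 expression was used, in which 54 transporter genes of 26992 were present and 52 tested. slc7a7 and slc43a1a lay at the lowest value of the table in nearly all columns. Differences on this scale are compressed near that lowest value, 3.59, so folds of weakly expressed genes are approximate. Names here follow RefSeq, and where the identifiers of the count table share a symbol the pairs were not matched between tables. Gene slc7a6os is again not a transporter.

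In the controls alone, 22 of 52 genes (42.3%) changed from 48 to 72 hpf, 14 up and 8 down, beside 25.6% of all genes, 13.0% up and 12.6% down (limma, adjusted p over 24853 genes). Glutamate carriers led the rise. slc1a8a went from 4.44 ± 0.14 (SD, n = 4) to 6.40 ± 0.21 (n = 5), a change of 1.96 ± 0.19 (adjusted p = 6.7e-11), slc1a2a changed by 1.89 ± 0.17 (adjusted p = 1.9e-11), and the retinal types slc1a7a and slc1a7b by 1.70 ± 0.24 (adjusted p = 3.3e-07) and 1.70 ± 0.18 (adjusted p = 6.4e-10). slc7a10a, a carrier of glycine and serine in mammalian brain, changed by 1.65 ± 0.11 (adjusted p = 4.1e-15). On the falling side slc1a3a changed by -1.11 ± 0.09 (adjusted p = 2.2e-12) and slc43a2a by -0.68 ± 0.12 (adjusted p = 2.3e-05). From 72 to 96 hpf 13 genes (25.0%) changed, 10 up and 3 down, beside 17.6% of all genes, 9.77% up and 7.83% down, with slc1a2a again first at 1.63 ± 0.16 (adjusted p = 4.9e-10) and slc7a1a next at 0.82 ± 0.11 (adjusted p = 9.4e-07). slc1a4 was the largest fall, -0.68 ± 0.18 (adjusted p = 0.0062).

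Against these controls NB2 changed 0 of 52 genes at 48 hpf and 0 at 72 hpf, beside 0% and 0.728% of all genes (limma). An unadjusted p under 0.05 was reached by 7 genes (13.5%) at 48 hpf, beside 4.81% of all genes, and by 19 (36.5%) at 72 hpf, beside 13.4% of all genes. NB2 at 30 µM, PFAS 2, had 0 called at 48 hpf as well. At 96 hpf 24 genes (46.2%) were called, 19 higher and 5 lower, beside 18.4% of all genes, 8.22% higher and 10.16% lower. Their median over all 52 was 0.25, against -0.02 over all genes. These calls come from limma on log2 values, and the study's own DESeq2 test reported far fewer genes at 96 hpf. Counts of the time course were not tested here. By family 6 of 13 were called in SLC1 (3 higher, 3 lower), 2 of 3 in SLC3, 5 of 17 in SLC7, 1 of 2 in SLC36, 5 of 12 in SLC38 and 5 of 5 in SLC43, and those of SLC7, SLC36 and SLC38 were all higher.

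The heavy chain slc3a2b changed most. Its 5 controls at 96 hpf read 8.33, 8.14, 8.47, 8.24 and 8.38 and its 5 NB2 columns 10.09, 9.51, 9.50, 10.02 and 10.04, with no overlap, a change of 1.52 ± 0.12 (2.87-fold higher, adjusted p = 1.7e-12). The other heavy chain gene, slc3a2a, went down, from 4.79, 4.65, 4.56, 5.06 and 4.85 to 4.02, 4.62, 4.07, 4.36 and 3.97, -0.58 ± 0.16 (adjusted p = 0.0083), with overlap. The 2 genes moved in opposite directions, and slc3a2b was the higher by several log2 units. In the count table the gene named slc3a2a was the more abundant of its pair, another reason to keep names apart between the tables.

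slc43a2a, a LAT4 gene, read 9.39, 9.56, 9.31, 9.48 and 9.42 in the controls and 10.71, 10.16, 10.21, 11.05 and 10.76 with NB2, 1.15 ± 0.11 (2.21-fold higher, adjusted p = 3.9e-10). slc1a5 read 7.05, 7.00, 7.43, 7.10 and 7.50 and 8.39, 7.95, 7.96, 8.45 and 8.05, 0.94 ± 0.15 (1.92-fold higher, adjusted p = 5.7e-06), and slc7a3a read 8.33, 8.60, 8.41, 8.58 and 8.44 and 9.45, 8.99, 9.27, 9.401 and 9.41, 0.83 ± 0.13 (1.78-fold higher, adjusted p = 5.8e-06). In each of these 3 the groups did not overlap. slc43a3b changed by 0.86 ± 0.13 (adjusted p = 3.7e-06) and slc7a8a by 0.74 ± 0.11 (adjusted p = 1.8e-06), both without overlap, and slc1a4, whose groups overlapped, by 0.74 ± 0.18 (adjusted p = 0.0027). The other 11 genes called higher besides slc1a8b changed by 0.32 to 0.61, among them slc7a1b, slc36a1, slc38a4 and slc38a5b.

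On the lower side, the astroglial slc1a2b read 11.504, 11.61, 11.55, 11.54 and 11.53 in the controls and 11.10, 11.19, 11.28, 11.19 and 11.18 with NB2, -0.36 ± 0.07 (adjusted p = 0.00040), a small change with no overlap. slc1a8a read 6.38, 6.62, 6.53, 6.49 and 7.02 and 6.06, 5.98, 5.24, 6.30 and 5.63, -0.77 ± 0.18 (1.70-fold lower, adjusted p = 0.0013), also without overlap. slc43a1b changed by -0.50 ± 0.12 (adjusted p = 0.0021) and slc1a1 by -0.38 ± 0.13 (adjusted p = 0.036), both with overlap. The slc1a1 call was lost without Control columns B, D or E or NB2 columns A, C or E (adjusted p 0.051 to 0.12). Likewise slc1a8b (0.62 ± 0.22, adjusted p = 0.047) and slc38a3b (0.36 ± 0.13, adjusted p = 0.046) lost the call in 8 of 10 fits without 1 column, and also with no filter on low values, with no trend in the limma fit and with centred columns (adjusted p up to 0.057 and 0.068 over the last 3). The fits that kept it were, for slc1a8b, those without column E of either group and, for slc38a3b, those without Control column D or NB2 column B. slc38a11 lost it without Control column B or C or NB2 column A or D, slc43a3a without Control column C or E or NB2 column A or E, slc7a6 without Control column D or NB2 column A or D, and slc38a5b without NB2 column A, with adjusted p of 0.053 to 0.16 over all the fits without 1 column. With no trend slc1a1 and slc38a5b also lost it (adjusted p 0.051 and 0.053).

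The NB2 effect differed between 96 and 72 hpf for 15 of 52 genes (28.8%), 10 upward and 5 downward, beside 12.2% of all genes, 5.69% upward and 6.50% downward (limma interaction). For slc3a2b the difference was 1.36 ± 0.17 (adjusted p = 3.5e-07), for slc43a3b 1.23 ± 0.18 (adjusted p = 1.1e-05) and for slc43a2a 0.89 ± 0.16 (adjusted p = 0.00016), and for slc1a8a -1.06 ± 0.25 (adjusted p = 0.0033). Between 72 and 48 hpf it differed for 0 of 52, beside 0.197% of all genes, and 19 (36.5%) had an unadjusted p under 0.05, beside 11.96% of all genes. In the plots of the time course the NB2 and control lines are furthest apart at 96 hpf. For slc1a5 they were already 0.42 apart at 72 hpf, a change that was not called. Of 26 shortage response genes 16 were higher and 0 lower at 96 hpf, with chac1 at 2.30 ± 0.15 and trib3 at 1.79 ± 0.14, of 20 synthetases 10 and 0, and of 14 heat shock genes 11 and 0. Of 15 neuron markers 1 was higher and 7 lower at that age. The shares of all genes at 96 hpf were 8.22% higher and 10.16% lower. The part of these lists in the carrier results was not tested.

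**Figure D5:**
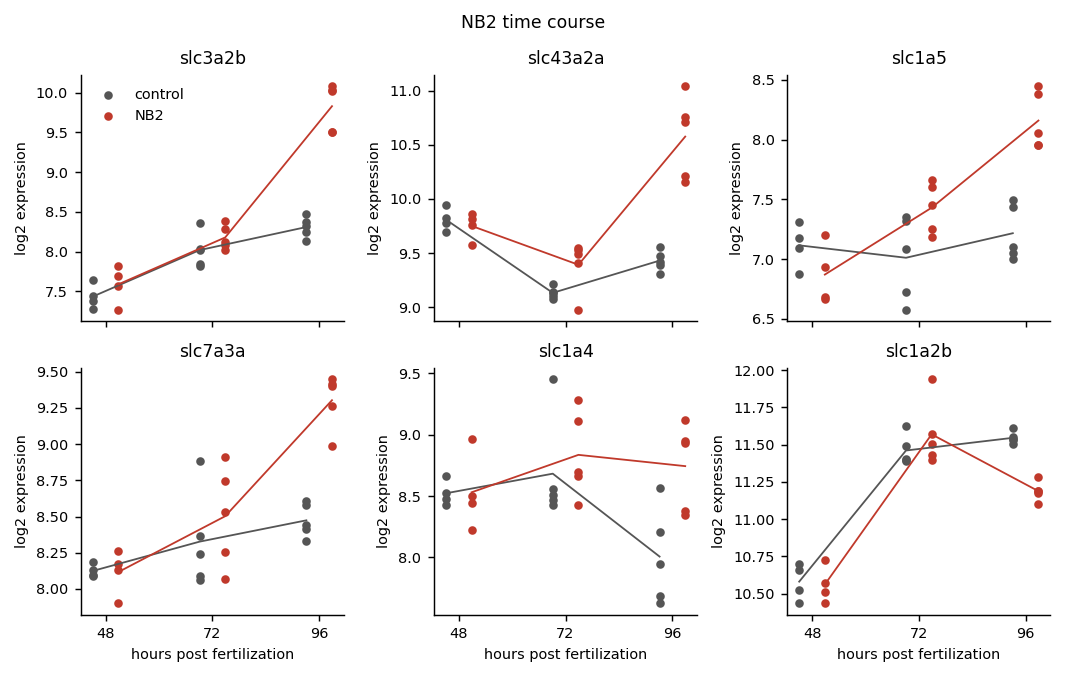
Log2 expression of 6 transporter genes by hours post fertilization in the controls (grey) and with 73 µM NB2 (red), 1 point per column, 4 per group at 48 hpf and 5 at 72 and 96 hpf, shifted sideways by group, with lines through the means; each panel has its own vertical scale, which does not start at 0. At 96 hpf every NB2 point lies above every control for slc3a2b, slc43a2a, slc1a5 and slc7a3a and below for slc1a2b, while the slc1a4 groups overlap.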

How the data were processed

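Embryos were sequenced with the QuantSeq 3′ mRNA-Seq FWD kit, and reads were aligned with STAR to GRCz11 and counted per gene and strand with HTSeq by the authors, who deposited raw counts for 140 runs of 70 libraries. The 2 runs of each library were summed here. The deposited table used for testing is the one from which the authors had removed the least counted genes (27904 of 32520 genes kept, all 54 transporter genes among them). For the NB2 time course the authors deposited normalized expression from DESeq2, taken here as log2 values, in 28 columns for 30 samples. Deposited tables of the authors' fold changes, p-values and enrichment results were not used. Versions of STAR, HTSeq and DESeq2 as run by the authors are not given in the sources used here.

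Counts were tested with edgeR 4.0.16 in R 4.3.3 (TMM, filterByExpr with a minimum count of 10 and total of 15, quasi-likelihood F test) in 1 fit over 69 libraries, without PFAS 5 replicate 1 as in the study's methods, and p-values were adjusted by Benjamini-Hochberg over 21928 genes. CPM are TMM-scaled. Log2 values were tested with limma 3.58.1 (trend) in 1 fit over the 6 groups, on 24853 genes above the lowest value of 3.59 in at least 4 columns. Each ± on a change is a standard error. The steps were tested on simulated data. Alternatives were DESeq2 1.42.0, other size factors, no filter, only the libraries of the groups compared, PFAS 5 replicate 1 included, a replicate block (on the column letter for NB2, added after seeing the data), no trend, centred columns and each library left out.

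Collection days pair the Round 1 libraries by design. Deviations from the group means correlated by 0.0356 on average within a day and -0.00811 between days (12811 genes). The labels do not say whether pools came from separate spawnings, so p-values measure the spread between pools.

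Symbols were found for 25504 of the 27904 identifiers and for 23971 of 26992 in the NB2 table. Members and lists were chosen with earlier results of these data known. Named were genes called in at least 3 of PFAS 8 to 13. So were the 5 largest called rises and falls of each of these and of NB2, and the 5 highest in controls. Up to 4 genes of a related list were named, and more of the shortage response. SLC7A6, slc7a11, slc7a1a, slc7a2 and SLC7A3 ENSDARG00000061566 were named as uncalled relatives of called genes. SLC38A2, SLC3A2, SLC7A1, SLC7A8, SLC38A3 ENSDARG00000091061, SLC43A2 ENSDARG00000036848, SLC7A5, SLC7A9 and the PFAS 12 shortage genes were added after their values were seen.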

Additional observations from a re-analysis of the deposited data

Results flagged for a closer look

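In 8 of 135 groups of a gene and an exposure 1 library stood far from the rest by Dixon's criterion, which chance alone exceeds in about 1 of 20 groups. Control Round 1 replicate 4 was that library 5 times. It read 68.4 CPM for SLC1A4 (the other controls 32.7 to 40.5), 19.4 CPM for SLC7A3 (12.4 to 13.5), 28.9 CPM for SLC7A8 (17.8 to 20.8), 12.8 CPM for SLC43A1 ENSDARG00000037748 (8.53 to 9.38) and 8.59 CPM for SLC43A3 (5.59 to 6.71). Without it SLC1A4 changed by 1.64 in PFAS 10, 1.25 in PFAS 11 and 1.48 in PFAS 13, SLC7A8 was also called in PFAS 11 (0.46 ± 0.13, edgeR adjusted p = 0.0069) and PFAS 13 (0.37 ± 0.13, adjusted p = 0.032), and SLC43A1 ENSDARG00000037748 and SLC43A3 kept their calls in PFAS 12 and PFAS 9. PFAS 10 replicate 1 read 153 CPM for SLC1A4 (the other 3 pools 97.6 to 103), PFAS 13 replicate 2 read 69.5 CPM for SLC1A3 (85.9 to 89.3) and PFAS 9 replicate 3 read 221 CPM for SLC43A2 (279 to 286).

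The effect of NB2 differed between 96 and 72 hpf for 15 genes in the limma interaction term. The difference was upward for slc3a2b (1.36), slc43a3b (1.23), slc7a14b (1.18), slc38a8a (1.04), slc1a8b (1.02), slc43a2a (0.89), slc7a8a (0.81), slc7a1b (0.79), slc7a3a (0.65) and slc7a3b (0.65). It was downward for slc1a8a (-1.06), slc43a1b (-0.87), slc1a2a (-0.75), slc1a1 (-0.67) and slc1a2b (-0.47). For slc7a14b, slc38a8a and slc7a3b it set an uncalled fall of the mean at 72 hpf against an uncalled rise at 96 hpf. For slc1a2a it set an uncalled rise at 72 hpf against an uncalled fall at 96 hpf. The calls of slc38a8a, slc7a3b, slc1a8b and slc1a2a were lost in 14, 13, 6 and 4 of the 20 fits without 1 column, and those of the other 11 in none. With no filter and with no trend slc38a8a and slc7a3b lost it too, slc7a3b also with centred columns.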

How the results depend on the processing

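Calls rested on 4 to 6 pools a group, and genes under 1 CPM gave little precision. Over 164 pairs of a named gene and a comparison 2514 values were recomputed. Of these 2325 stayed on the same side of the threshold, 183 lost the call and 6 gained it. Where either fit called the gene 0 turned direction, and a change of sign between uncalled fits was not counted. Without 1 library the number of transporter genes called was 3 to 5 in PFAS 8, 3 to 7 in PFAS 9 (3 without PFAS 9 replicate 2), 16 to 18 in PFAS 10, 11 to 16 in PFAS 11, 8 to 9 in PFAS 12, 11 to 14 in PFAS 13, 0 to 2 in PFAS 6 (2 without PFAS 6 replicate 2) and 0 to 1 in PFAS 7. In the time course it was 17 to 23 at 96 hpf, 0 to 2 at 72 hpf (2 without NB2 column C), 17 to 21 and 11 to 13 between control ages, 11 to 15 for the interaction of 96 with 72 hpf and 0 to 2 for that of 72 with 48 hpf (2 without Control column C at 48 hpf). In PFAS 7 DESeq2 called 2 genes and the fit with only the 2 groups called 1. Other alternatives gave 4 to 5 calls in PFAS 8, 5 to 7 in PFAS 9, 16 to 17 in PFAS 10, 12 to 16 in PFAS 11, 8 in PFAS 12, 13 to 16 in PFAS 13 and 20 to 22 for NB2 at 96 hpf. The causes were not tested.

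With the collection day as replicate block 1 gene, slc3a2a, was called in PFAS 6, and apart from the 10 changes of call in PFAS 6 to 13 (9 gained, SLC7A6OS in PFAS 11 at -0.44 ± 0.14 with an edgeR adjusted p of 0.021 among them, and slc1a8a lost) the replicate block changed no other call. In Round 2 libraries share only a replicate number (mean correlation of deviations 0.0430 for the same number, -0.0142 for different ones), and 0 genes were called with or without that replicate block. In the NB2 table no source ties the column letters to replicate numbers, and columns of the same letter did not deviate together (mean correlation -0.00698 over 13 pairs, -0.114 to 0.176). A replicate block on the letter, chosen after seeing the data, gave 22 calls at 96 hpf (24 without it), 21 and 13 between control ages, 14 for the interaction of 96 with 72 hpf and 0 elsewhere.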
